A study of Homo sapiens with 6 samples.

Results

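The ERK pathway feedback genes are 10 genes that ERK signalling is known to switch on, namely DUSP4, DUSP5, DUSP6, SPRY1, SPRY2, SPRY4, SPRED1, SPRED2, ETV4 and ETV5. They were looked up by name among the 58051 Ensembl genes counted in each library, and all 10 were found and had enough counts to be tested. The libraries came from A172, an established human glioblastoma cell line, made into stable lines with a lentivirus carrying either RBFOX1 or, as control, GFP. Both groups therefore went through lentiviral transduction, and both were grown in the same serum-containing medium, with 3 libraries of total RNA in each. RBFOX1 is an RNA-binding protein that recognises UGCAUG in transcripts. The question addressed here is how the mRNA levels of these 10 genes differed between cells expressing RBFOX1 from the construct and cells expressing GFP. Counts measure the level of an mRNA, so a change in its transcription and a change in its decay cannot be told apart. The study describes 3 biological replicates of each line but no separate clones, so the p-values measure the spread between these libraries.

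In growing cells, a growth factor receptor activates RAS, which passes the signal through the RAF and MEK kinases to ERK. ERK in turn induces a set of genes that hold it back. The DUSP phosphatases remove phosphate from ERK itself, whereas the Sprouty proteins (SPRY) and their SPRED relatives act further up, at the level of the receptor, RAS and RAF. ETV4 and ETV5 are ETS-family transcription factors that are induced along with these brakes and carry the signal on to further genes. Glioblastomas often carry lesions that activate this pathway, and the mRNA levels of these genes are widely read as a sign of its output.

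The libraries held 7433414 to 23249221 counts on genes, the shallowest being RBFOX1 replicate 1. GFP replicate 1, the deepest, differed most from its own group (chi-square per degree of freedom 8.08 and 8.23, against 1.60 to 2.80 in the other replicate pairs), and without it 7 of the 10 genes were called lower and 1 higher. RBFOX1 itself had 4, 0 and 1 counts in the GFP libraries and 10276, 16467 and 21451 counts in the RBFOX1 libraries. Of 7 markers looked up for the line, VIM, CD44 and NES were high in all libraries, while GFAP had at most 4 counts and S100B at most 2 in any library. Among these 7, 2 were called higher (NES and SOX2) and 3 lower (VIM, CD44 and OLIG2), and their summed level was 5486 to 5602 CPM (counts scaled by library size) in GFP and 3633 to 3687 CPM in RBFOX1 cells. The markers of blood, epithelial and endothelial cells PTPRC, EPCAM and PECAM1 together reached 2.19 to 2.97 CPM in GFP and 9.67 to 10.2 CPM in RBFOX1 cells, 2 of the 3 (PTPRC and PECAM1) being called higher, and their part in the results was not tested.

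Most feedback genes were lower in the RBFOX1 cells, by modest amounts, and DUSP5 alone was higher. At an adjusted p under 0.05 in edgeR's quasi-likelihood test, 8 of the 10 were lower, 1 was higher and 1 (SPRED2) did not pass. Over all 20536 genes tested, 22.9% were called lower and 23.7% higher, or 46.6% in either direction. Calls are more frequent in genes with more counts, and among the 12012 genes whose mean count, scaled to the average library, reached 50, 33.4% were called lower and 30.4% higher, or 63.8% in all. Of the 9 feedback genes above that level (all but SPRY1), 7 were lower and 1 was higher. The median log2 fold change of the 10 genes was -0.35, compared with 0.0051 over all genes tested. Set against the average GFP level of each gene, the log2 differences of the 10 had medians of -0.36 in RBFOX1 replicate 1, -0.30 in replicate 2 and -0.34 in replicate 3.

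The changes were small beside those of many other genes. For the 7 well-measured genes that were lower, the fall was from 16.2 to 30.9%, and the log2 fold changes ran from -0.53 to -0.26. The middle of all tested genes, from the 25th to the 75th percentile, spanned log2 fold changes of -0.35 to 0.41. That span takes in the genes with few counts and was not computed for the well-counted genes alone. ETV4 lay at percentile 17.0 and DUSP5 at percentile 73.8 of all fold changes ordered from lowest to highest. With an added minimum of 1 on the absolute log2 fold change, which 12.7% of all genes met, SPRY1 was the single feedback gene that remained. In 7 of the 10 genes all RBFOX1 libraries lay below all GFP libraries, and in 1 above, where 26.5% and 26.9% of all genes, or 53.4% together, were separated in these directions. Since each library is a bulk extract, less RNA in every cell and fewer cells expressing a gene cannot be told apart.

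**Figure D1:**
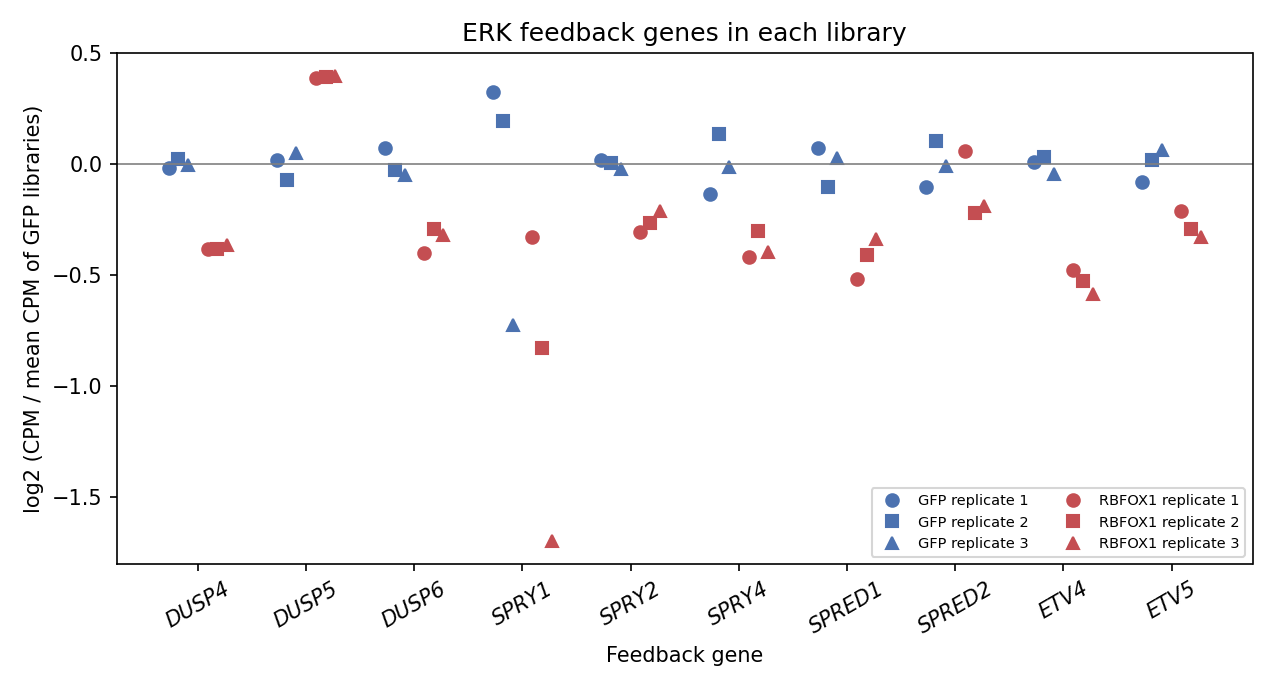
Level of each feedback gene in each library, as the log2 of its CPM over the mean CPM of the 3 GFP libraries (y axis), for the 10 genes (x axis), with blue for GFP, red for RBFOX1 and a marker shape for each replicate number. The red points lie below the blue ones in 7 genes and above them in DUSP5, and they mix with the blue ones in SPRY1 and SPRED2.

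**Figure D2:**
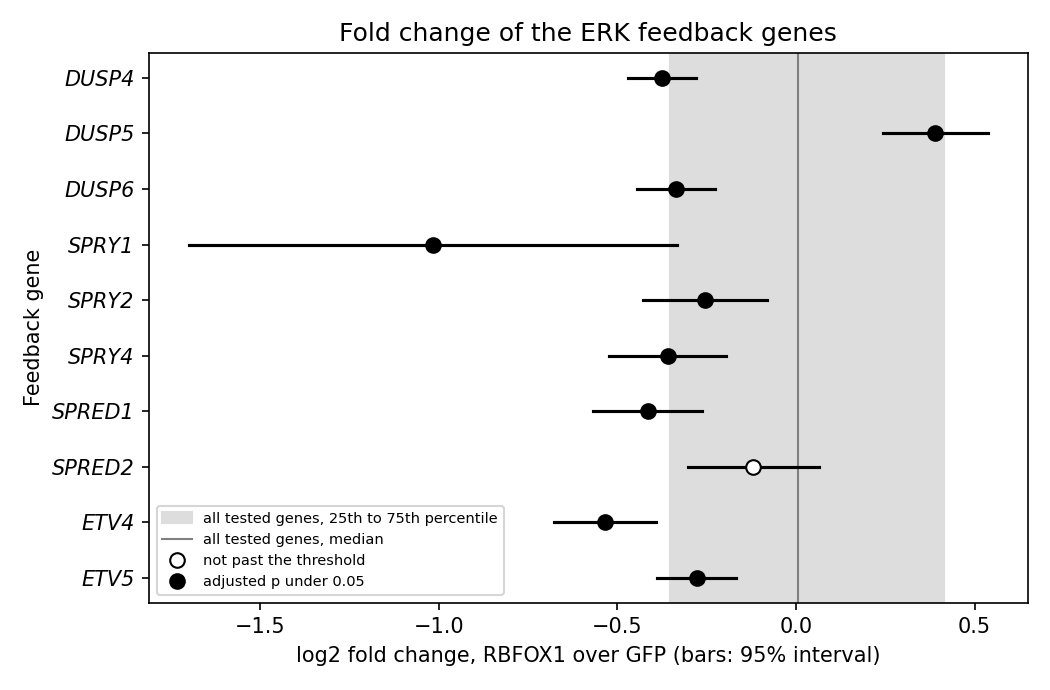
Fitted log2 fold change of RBFOX1 over GFP cells for the 10 feedback genes, with 95% intervals as bars, filled points for an adjusted p under 0.05 and an open point otherwise. The grey band marks the 25th to 75th percentile of all 20536 tested genes, from -0.35 to 0.41, and most of the genes sit near its lower edge.

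The genes differed widely in level. Divided by exon length, so that genes can be compared, DUSP6 was the most abundant in GFP cells at 48.8 ± 2.21 CPM per kilobase of exon (SD, n = 3). DUSP4 followed at 40.0 ± 0.573 and ETV5 at 34.2 ± 1.74 on the same scale. ETV4 (12.1 ± 0.326) and DUSP5 (10.8 ± 0.485) formed a middle pair. SPRY2 (6.19 ± 0.0851), SPRY4 (6.09 ± 0.569) and SPRED1 (5.71 ± 0.354) came next, and the library ranges of SPRY4 overlapped those of SPRY2 and of SPRED1, while every SPRY2 library stood above every SPRED1 library. SPRED2 stood at 4.77 ± 0.340, below each of them, and SPRY1 was last at 0.538 ± 0.186. In RBFOX1 cells the order was the same for the first 3 genes, but DUSP5 (14.2 ± 0.0362 CPM per kilobase) stood above ETV4 (8.43 ± 0.317), with no overlap between their libraries. SPRY2 (5.17 ± 0.171) stood above SPRY4 (4.71 ± 0.202) in every library of these cells, and the ranges of SPRY4 and SPRED2 (4.41 ± 0.476) overlapped, as did those of SPRED2 and SPRED1 (4.27 ± 0.261).

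**Figure D3:**
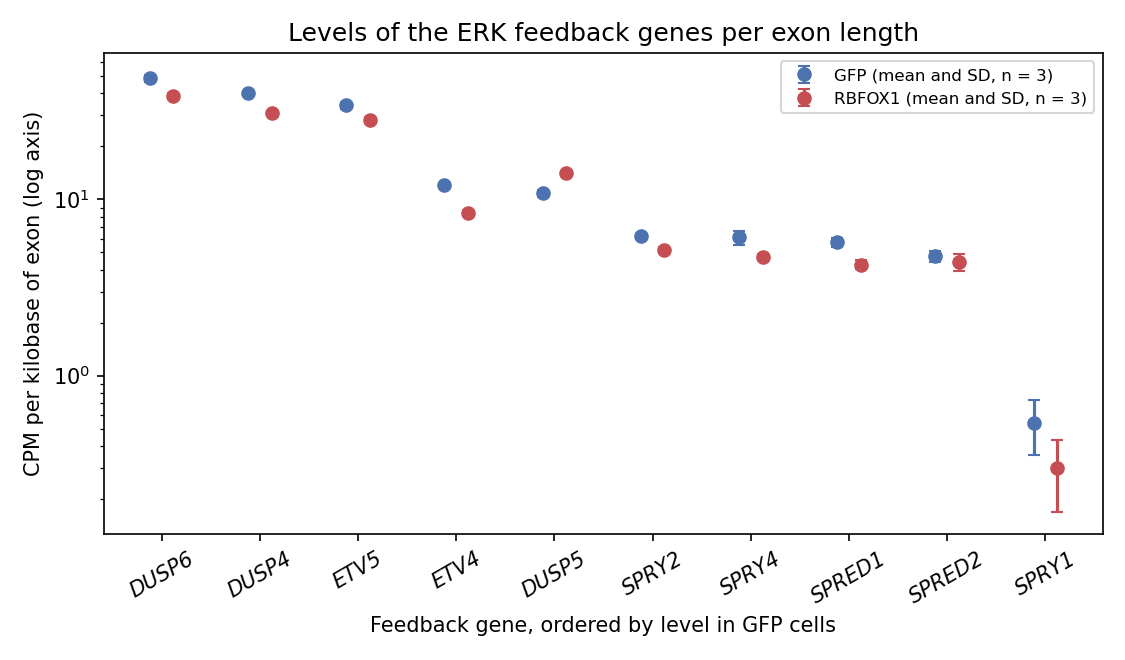
Level of each feedback gene as CPM per kilobase of exon on a log axis (y axis), ordered by the level in GFP cells (x axis), with mean and SD of 3 libraries in GFP (blue) and RBFOX1 (red) cells. The range runs from 48.8 for DUSP6 to 0.538 for SPRY1 in GFP cells, and DUSP5 is the gene whose red point lies above the blue one.

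Among the dual-specificity phosphatases, which dephosphorylate ERK, the 2 abundant ones fell and the less abundant one rose. DUSP6, a cytoplasmic phosphatase specific for ERK, lies on chromosome 12 of GRCh38 from 89347235 to 89352501 on the minus strand. It measured 198, 185 and 182 CPM in GFP replicates 1, 2 and 3 and 142, 154 and 151 CPM in RBFOX1 replicates 1, 2 and 3. The groups did not overlap, and DUSP6 fell by 20.8%, with a log2 fold change at -0.34 (standard error, SE, 0.0520, adjusted p = 1.90e-05). DUSP4 (chromosome 8, 29333064 to 29350684, minus strand), a nuclear phosphatase that also acts on other MAP kinases, measured 288, 296 and 290 CPM in GFP and 223, 223 and 226 CPM in RBFOX1 cells. Its libraries were tight within each group, and it fell by 22.9% (log2 fold change -0.38, SE 0.0453, adjusted p = 7.95e-07).
DUSP5, a nuclear phosphatase specific for ERK, lies on chromosome 10 from 110497907 to 110511533 on the plus strand. It had 27.8, 26.1 and 28.5 CPM in the GFP libraries and 35.9, 36.0 and 36.1 CPM in the RBFOX1 libraries. Every RBFOX1 library lay above every GFP library, and the log2 fold change was 0.39 (SE 0.0701, 95% interval 0.24 to 0.54, adjusted p = 0.000108), a rise of 31.0%. As a share of the summed level of the 3 phosphatases per kilobase of exon, DUSP5 made up 10.9% ± 0.518 (SD, n = 3) in GFP cells and 17.0% ± 0.307 (SD, n = 3) in RBFOX1 cells. The sum itself went from 99.6 ± 1.92 to 83.7 ± 1.63 CPM per kilobase (SD, n = 3 each).

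The Sprouty genes were lower, to different degrees of certainty. SPRY4, on chromosome 5 from 142310427 to 142326455 on the minus strand, encodes an inhibitor of signalling between growth factor receptors and RAF. It measured 36.4, 43.8 and 39.6 CPM in GFP and 29.9, 32.4 and 30.3 CPM in RBFOX1 cells. The groups did not overlap, and SPRY4 fell by 22.0% (log2 fold change -0.36, SE 0.0781, adjusted p = 0.000734). SPRY2 (chromosome 13, 80335976 to 80341126, minus strand), the best studied family member, had 20.1, 19.9 and 19.6 CPM in GFP and 16.1, 16.6 and 17.2 CPM in RBFOX1 cells. It was lower in each RBFOX1 library, by -0.26 on the log2 scale (SE 0.0830, adjusted p = 0.0157), but passed the threshold neither with DESeq2 (adjusted p = 0.0914) nor without RBFOX1 replicate 2 (adjusted p = 0.0510), within a range of 0.00894 to 0.0914 over the alternatives tried.
SPRY1, on chromosome 4 from 123396795 to 123403760 on the plus strand, was barely expressed. It had 61, 29 and 17 counts in the GFP libraries and 13, 15 and 10 counts in the RBFOX1 libraries, or 2.67, 2.44 and 1.29 CPM against 1.70, 1.20 and 0.658 CPM. The groups overlapped, since GFP replicate 3 lay below RBFOX1 replicate 1. The fitted log2 fold change of -1.01 (SE 0.326, 95% interval -1.70 to -0.33, adjusted p = 0.0146) was the lowest of the 10 genes and the least precise. Without GFP replicate 1 it was -0.75 (adjusted p = 0.0959), without RBFOX1 replicate 3 it was -0.65 (adjusted p = 0.153), and DESeq2 gave -0.93 (adjusted p = 0.0747), within a range of adjusted p from 0.000748 to 0.153 over the alternatives tried.

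The SPRED genes encode membrane-bound proteins that suppress RAS, SPRED1 by bringing the RAS inactivator neurofibromin to the membrane. SPRED1 (chromosome 15, 38252836 to 38357249, plus strand) had 46.5, 41.2 and 45.1 CPM in GFP and 31.0, 33.3 and 35.0 CPM in RBFOX1 cells. It fell by 25% with no overlap between the groups (log2 fold change -0.42, SE 0.0724, adjusted p = 7.59e-05). SPRED2 (chromosome 2, 65310851 to 65432637, minus strand) measured 24.4, 28.2 and 26.1 CPM in GFP and 27.3, 22.6 and 23.0 CPM in RBFOX1 cells. RBFOX1 replicate 1 lay among the GFP libraries while the other RBFOX1 libraries lay below them. The log2 fold change was -0.12 with a 95% interval of -0.30 to 0.063 (adjusted p = 0.289), so that a fall of the size seen in DUSP4 or SPRED1 lay outside the interval but a smaller one did not. With each library left out in turn, the log2 fold change of SPRED2 lay between -0.18 without RBFOX1 replicate 1 (adjusted p = 0.107) and -0.068 without RBFOX1 replicate 2 (adjusted p = 0.636), with -0.076 and -0.078 without GFP replicate 2 and RBFOX1 replicate 3, and it passed the threshold in none of these.

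ETV4 and ETV5, with ETV1, form the PEA3 group of ETS transcription factors. ETV4 (chromosome 17, 43527844 to 43579620, minus strand) had 43.0, 43.7 and 41.4 CPM in GFP and 30.7, 29.7 and 28.5 CPM in RBFOX1 cells. It showed the largest fall among the 9 well-measured genes, by 30.9% (log2 fold change -0.53, SE 0.0684, adjusted p = 1.74e-06). ETV5 (chromosome 3, 186046314 to 186110318, minus strand) had 187, 200 and 206 CPM in GFP and 171, 162 and 157 CPM in RBFOX1 cells. The groups were again separate, and ETV5 fell by 17.5% (log2 fold change -0.28, SE 0.0529, adjusted p = 0.000191). Exons of ETV5 overlap those of DGKG on the same strand in GENCODE release 44. On the opposite strand, exons of ETV4 overlap those of DHX8, and exons of DUSP6 overlap those of a gene without a symbol. The effect of these overlaps on the counts was not tested. ETV1, which is not among the 10 genes, fell further, from 65.9 ± 2.55 to 31.6 ± 3.43 CPM (SD, n = 3 each), which is -1.04 on the log2 scale (SE 0.0737, adjusted p = 3.57e-10).

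Ratios between members of a family were compared within each library, where the scaling between libraries plays no part. The log2 ratio of DUSP5 to DUSP6 counts was -2.83, -2.82 and -2.68 in the GFP libraries and -1.98, -2.10 and -2.06 in the RBFOX1 libraries. The ratio was thus higher in every RBFOX1 library, with a difference of 0.73 on the log2 scale (exact permutation test, two-sided, p = 0.1, the smallest that 3 against 3 libraries allow, and 0.267 when adjusted over the 8 pairs compared). The ratio of DUSP4 to DUSP5 differed by -0.77, again with no overlap (exact permutation p = 0.1, adjusted 0.267). The log2 ratio of DUSP4 to DUSP6, whose libraries overlapped between the groups, was 0.63 ± 0.0780 with GFP and 0.59 ± 0.0575 with RBFOX1 (SD, n = 3 each; exact permutation p = 0.5).
The ratio of ETV4 to ETV5 was lower in every RBFOX1 library, by -0.25 on the log2 scale (exact permutation p = 0.1, adjusted 0.267). In the SPRY1 to SPRY2, SPRY1 to SPRY4, SPRY2 to SPRY4 and SPRED1 to SPRED2 ratios the libraries of the groups overlapped, with differences of -0.59, -0.48, 0.11 and -0.31 (exact permutation p = 0.3, 0.5, 0.3 and 0.3). Both SPRY1 ratios rest on 10 to 61 counts of that gene. With each library left out in turn, the SPRY1 to SPRY2 difference ran from -0.92 to -0.20, the SPRY1 to SPRY4 difference from -0.82 to -0.13, the SPRY2 to SPRY4 difference from 0.041 to 0.18 and the SPRED1 to SPRED2 difference from -0.41 to -0.17, so that their sizes are poorly fixed.

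**Figure D4:**
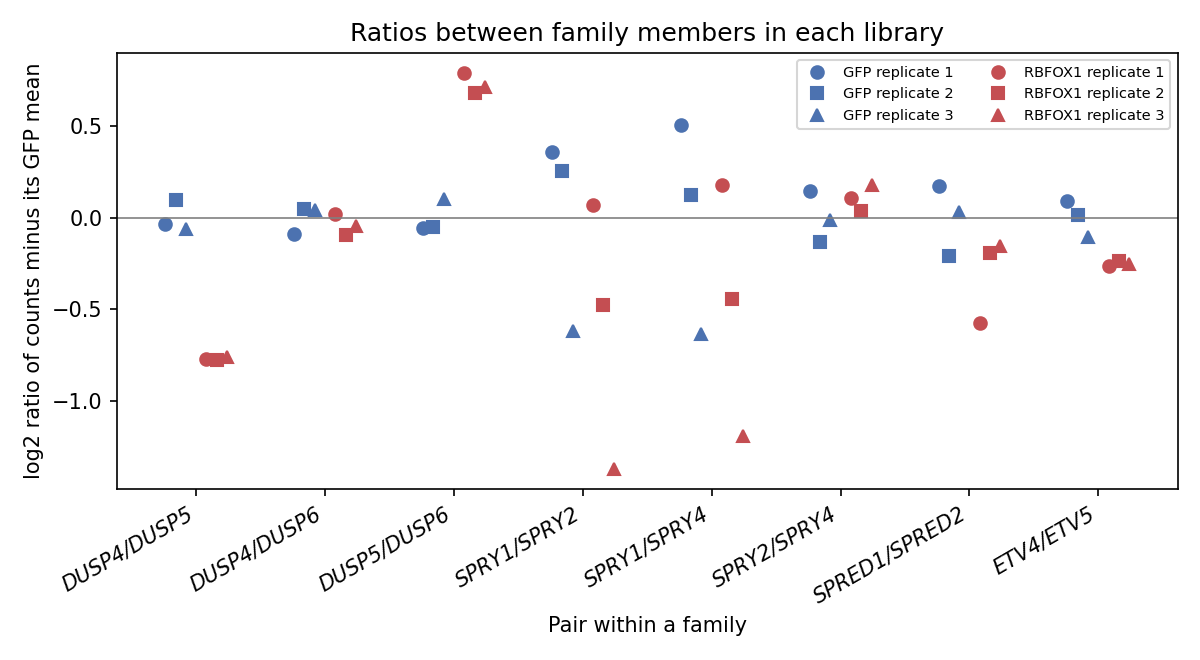
Log2 ratio of the counts of paired family members in each library, minus its mean in the GFP libraries (y axis), for the 8 pairs (x axis), with blue for GFP, red for RBFOX1 and a marker shape for each replicate number. Red and blue points are separate for DUSP4/DUSP5, DUSP5/DUSP6 and ETV4/ETV5, and the pairs with SPRY1 are the most scattered.

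Because RBFOX1 binds UGCAUG, the 3' UTR of the canonical transcript of each gene was searched on its own strand for TGCATG (GENCODE release 44, GRCh38). SPRY4 held 2 sites in 3779 nucleotides and SPRED1 held 1 in 5585 nucleotides, and the other 8 genes held none, in 3' UTRs of 673 to 3962 nucleotides. Over all 19538 canonical 3' UTRs of protein-coding genes, 33.3% held at least 1, with a median length of 1064 nucleotides. The shorter GCATG, which every TGCATG contains, occurred 7 times in DUSP4, 5 times in DUSP6, 4 times in SPRED1, 3 times in SPRY4, 2 times in DUSP5, once each in SPRY1 and ETV5, and in none of SPRY2, SPRED2 and ETV4. The 3 sites are shown because they are the places in these transcripts where the full motif stands, and the capitals mark it. They lie at chr5:142312724-142312753 and chr5:142312584-142312613 on the minus strand, 1468 and 1608 nucleotides past the stop codon of SPRY4, and at chr15:38351832-38351861 on the plus strand, 180 nucleotides past that of SPRED1.
SPRY4 site 1: gtaggtacttgtTGCATGcaaaagctgtag
SPRY4 site 2: tgaaactggaagTGCATGaggcagagcgtc
SPRED1 site: ttttcccttgagTGCATGgcatgttttgtt
Both genes with a site fell, by 22.0% and 25%. Of the 8 genes without one, DUSP4, DUSP6, SPRY1, SPRY2, ETV4 and ETV5 were called lower, DUSP5 higher, and SPRED2 did not pass. A match to these letters is a description of the sequence and not a measured binding site.

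The last step of the ERK pathway acts through ETS, CREB and AP-1 factors. The 250 bases before the start of transcription were therefore also searched, on both strands. The letters sought were CCGGAA, a longer form of the ETS core GGAA, the cyclic AMP response element TGACGTCA and the AP-1 motif TGANTCA. RefSeq start sites (GRCh38.p14) were matched for 6 of the genes, with 10 start sites between them, and DUSP4, DUSP5, ETV4 and ETV5 were not matched. Of these 10 stretches, 2 held CCGGAA (1 of the 2 for SPRY1 and 1 of the 3 for SPRY2), against 14.5% of 35116 such stretches, and none held either of the others, which 1.65% and 6.57% of all stretches held. The stretch of SPRY2 is shown beside that of DUSP6 as an example of a promoter with CCGGAA and one without, both of genes that fell. The shorter core GGAA was not searched for, and the DUSP6 stretch does hold it. They cover chr13:80341127-80341376 and chr12:89352502-89352751, both on the minus strand, and the capitals mark the CCGGAA that begins 142 bases before the SPRY2 start.
SPRY2: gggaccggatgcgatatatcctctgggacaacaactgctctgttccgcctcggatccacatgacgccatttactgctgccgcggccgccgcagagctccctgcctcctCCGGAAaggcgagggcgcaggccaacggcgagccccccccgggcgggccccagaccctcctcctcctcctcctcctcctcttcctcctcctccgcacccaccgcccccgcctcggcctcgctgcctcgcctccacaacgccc
DUSP6: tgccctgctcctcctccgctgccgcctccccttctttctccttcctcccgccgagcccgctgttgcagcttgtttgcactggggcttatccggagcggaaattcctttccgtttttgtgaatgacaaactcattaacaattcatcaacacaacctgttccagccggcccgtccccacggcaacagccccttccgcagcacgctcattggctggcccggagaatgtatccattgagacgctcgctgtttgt
The absence of these letters from a stretch says nothing about the factors that bind elsewhere.

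To place the feedback genes in their pathway, 58 other genes in 6 lists were taken from the same fit. Of these, 56 were tested, and 18 passed the same threshold as higher and 17 as lower. Over all genes tested, 23.7% were higher and 22.9% lower, or 30.4% and 33.4% of those with a mean scaled count of at least 50. The calls of the lists together were thus about as frequent as among well-counted genes, and the count of each list below is to be read beside these shares. The median log2 fold change of the 56 genes was 0.037, against -0.35 for the feedback genes. The other MAP kinase phosphatases did not move together. DUSP1, an immediate early phosphatase that acts on all 3 main MAP kinase branches, rose from 18.5 ± 1.56 to 48.3 ± 0.970 CPM (SD, n = 3 each; log2 fold change 1.37, SE 0.0760, adjusted p = 8.50e-12). DUSP9 rose by 0.75 and DUSP7 fell by 0.30 on the log2 scale (adjusted p = 0.000873 and 0.00553). However, DUSP7 did not pass without RBFOX1 replicate 2 (adjusted p = 0.0503). In that list 2 of the 6 genes tested were higher and 1 lower. Among 7 further relatives of the feedback genes, 1 was higher and 2 lower. Besides ETV1, SPRED3 was lower (log2 fold change -0.44, adjusted p = 0.000614), and RASA1, a RAS inactivator, was higher (0.22, adjusted p = 0.00315).

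Of 10 other genes known as output of the pathway, 4 were higher and 5 lower. EGR1, an immediate early transcription factor, rose from 0.942 ± 0.0972 to 11.7 ± 1.69 CPM (SD, n = 3 each; log2 fold change 3.64, SE 0.187, adjusted p = 2.60e-12), and MYC rose by 1.01 on the log2 scale (adjusted p = 1.09e-09). EPHA2, a receptor tyrosine kinase whose transcription follows ERK, fell from 382 ± 13.7 to 169 ± 10.9 CPM (SD, n = 3 each; log2 fold change -1.18, SE 0.0533, adjusted p = 3.79e-13). The rest of that list, named after its values were seen, also went both ways. CCND1, which encodes cyclin D1, measured 1229 ± 66.2 CPM in GFP and 999 ± 12.3 CPM in RBFOX1 libraries (SD, n = 3 each; log2 fold change -0.30, adjusted p = 4.30e-05). The secreted ligands LIF and HBEGF fell by 0.61 and 0.56 on the log2 scale (adjusted p = 4.89e-09 and 1.80e-05), whereas the early response gene IER3 and the receptor gene EPHA4 rose by 0.38 and 0.22 (adjusted p = 1.77e-05 and 0.00901). FOSL1, an AP-1 subunit, had a log2 fold change of 0.14 and did not pass (adjusted p = 0.229). PHLDA1 was at -0.15 (adjusted p = 0.0184) and did not pass without GFP replicate 2 or 3, without RBFOX1 replicate 2 or 3, or with scaling by library totals alone, its adjusted p running from 0.000344 to 0.114 over the alternatives tried. EPHA4 did not pass without GFP replicate 3 (adjusted p = 0.0577).
The kinases of the cascade were also mixed, with 4 of 15 higher and 5 lower. MAPK3, which encodes ERK1, was among the lower at -0.17 (adjusted p = 0.0423), but passed in only 6 of 14 alternative fits. With DESeq2 it did not pass (adjusted p = 0.116), and its adjusted p ran from 0.0217 to 0.163 over these fits. RPS6KA3 and RPS6KA1, kinases activated by ERK, fell by 0.89 and 0.81 on the log2 scale, and MAP2K2, which encodes MEK2, by 0.43 (adjusted p = 3.03e-10, 3.34e-06 and 1.10e-06). Of the adaptors and exchange factors 3 of 9 were higher and 3 lower, with SOS2, a RAS exchange factor, at -0.62, the phosphatase gene PTPN11 at -0.38 and the ubiquitin ligase gene CBL at -0.24 (adjusted p = 1.90e-07, 1.99e-06 and 0.0106). CBL did not pass without GFP replicate 3 (adjusted p = 0.0544) or without RBFOX1 replicate 3 (adjusted p = 0.105), within 0.00485 to 0.105 over the alternatives tried. Of 9 growth factor receptors tested, 4 were higher and 1 lower, or 2 lower without GFP replicate 1 or without RBFOX1 replicate 1. MET, the receptor of hepatocyte growth factor, fell from 370 ± 8.82 to 190 ± 2.41 CPM (SD, n = 3 each; log2 fold change -0.96, SE 0.0464, adjusted p = 1.03e-12), and FGFR1 and PDGFRB rose by 0.41 and 0.19 on the log2 scale (adjusted p = 2.80e-07 and 0.0103). EGFR had a log2 fold change of -0.12 and did not pass the threshold (adjusted p = 0.178); it was named after its values were seen.

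**Figure D5:**
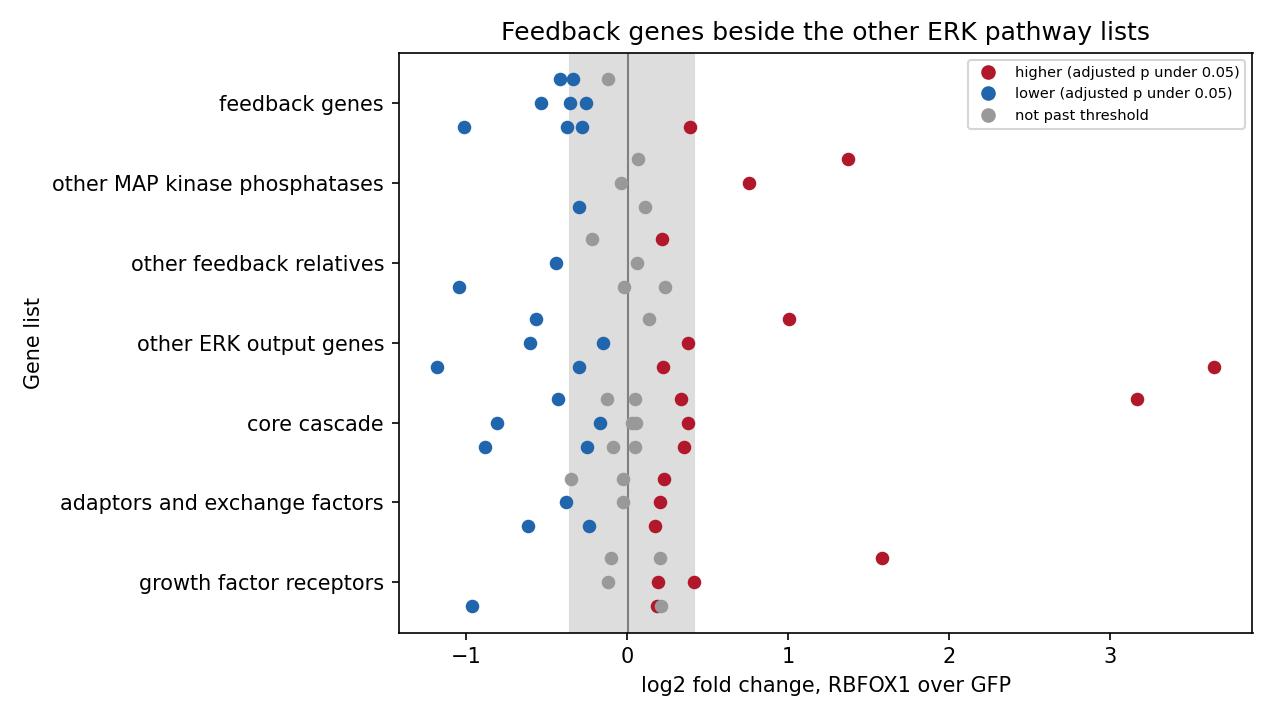
Fitted log2 fold change of RBFOX1 over GFP cells (x axis) of every tested gene in the feedback group and in the 6 other ERK pathway lists (y axis), red for higher and blue for lower at an adjusted p under 0.05 and grey otherwise, with points spread vertically for visibility. The grey band and line are the 25th to 75th percentile and the median of all tested genes, and 9 of the 10 feedback genes lie to the left of the line while the other lists lie on both sides of it.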

How the data were processed

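Total RNA of A172 cells carrying GFP or RBFOX1 was sequenced after rRNA depletion, with both ends read and strand kept. The deposited values are unnormalized counts per Ensembl gene, which the authors made with HISAT2 on GRCh38 and HTSeq-count in intersection-strict mode (versions not given in the sources used here). The lines for read pairs not assigned to a gene (38.1 to 48% of each library) were left out. The authors' table of DESeq2 results holds their own comparison and was not used.

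After TMM scaling, each gene whose counts over the 6 libraries summed to 10 or more entered edgeR's two-sided quasi-likelihood test (R 4.3.3 with edgeR 4.0.16). The model held RBFOX1 or GFP and nothing else, and p-values were adjusted by Benjamini-Hochberg. CPM values use the same scaling. Coordinates and exon lengths came from GENCODE release 44, a later annotation than the one counted. The genes named were the 10 feedback genes, RBFOX1 and the markers. From each list, up to 3 called genes were added, those with the largest change and a mean of at least 50 scaled counts. PHLDA1, CCND1, LIF, HBEGF, IER3, EPHA4, FOSL1, MAPK3 and EGFR were chosen after their values were seen. The members and lists were chosen with earlier results of these data known. DESeq2 (1.42.0), limma-voom (limma 3.58.1), other scalings and filters, a replicate block and the omission of each library were run as alternatives, and scaling by library totals alone was added after seeing the data. The procedure was also run on simulated counts, with few changed genes and the same dispersion for every gene. In the real data 46.6% of the tested genes were called, so that run does not measure the error here. All pairs of replicates differed by more than counting noise (lowest chi-square per degree of freedom 1.60).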

Additional observations from a re-analysis of the deposited data

How the results depend on the processing

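The 10 feedback genes kept the sign of their log2 fold change under all 16 alternatives. The fold minimum and the adjusted p under 0.01 reuse the main fit, so no sign could change in them. DUSP5 was the 1 gene called higher in all alternatives except the fold minimum. The genes called lower numbered 7 or 8 with each library left out in turn, 6 with DESeq2 or at an adjusted p under 0.01 (SPRY1 and SPRY2 no longer passing in either) and 8 with limma-voom. Among all genes, 4078 were higher and 3824 lower with DESeq2, 3938 and 3769 at an adjusted p under 0.01, and 4908 and 4666 with limma-voom. A minimum of 1 on the absolute log2 fold change left 0 feedback genes higher and 1 lower, 5 genes higher and 2 lower in the other lists, and 1691 higher and 920 lower among all genes. The median log2 fold change of the 10 genes was -0.30 when libraries were scaled by their totals alone, a setting that moved all genes by 0.050, and lay between -0.36 and -0.32 with each library left out. The other lists then had 17 to 18 genes higher and 14 to 20 lower, and all genes 4288 to 4777 higher and 4038 to 4530 lower. Whether same-numbered libraries belong together is not stated in the sources used here. Their deviations correlated at -0.18, 0.034 and -0.070, against -0.17 to 0.19 for differently numbered libraries. With so few libraries these values cannot settle the pairing. With the replicate block, 1 feedback gene was higher and 8 were lower, against 4588 and 4458 of all genes, and permuting the family ratios within replicate numbers cannot give a p below 0.25. The family ratios kept their sign in every setting tried, although permuting within replicate numbers leaves the difference as it is and could not change it. Depth limits SPRY1, where 3 counts are worth 0.131 to 0.392 CPM.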
